A study of Mus musculus with 8 samples.

Results

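The genes described here are 43 enzymes and regulators of the antioxidant and glutathione systems, read in 2-cell mouse embryos with and without an intact supply of BRG1. They were chosen as a list of symbols and matched to probe sets that the platform annotation gives that single symbol. Of the 43 genes, 39 had such a probe set, among 18193 genes with one on the whole array. Prdx1, Prdx5, Prdx6 and G6pdx were not analysed here, Prdx1 because its probe sets also carry a second symbol. Each gene is represented by the probe set whose log2 signal was highest on average, and its other tested probe sets are given beside it. A signal filter left 35 of the 39 for testing and left out Sod3, Gpx8, Txnrd2 and Hmox1, whose values are described below without a test.

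Total RNA of 20 whole embryos at the 2-cell stage was pooled for each sample and read on 1 Affymetrix array. The labels give 4 wild type samples and 4 Brg1 mutant samples, and the title of the series places the loss on the maternal side. Brg1 is the older name of Smarca4, which encodes a motor subunit of SWI/SNF chromatin remodellers. The labels name no allele, no Cre driver and no strain, and no age beyond the stage; in the published study, as background, the gene was deleted in growing oocytes by a Cre under the Zp3 promoter. Each sample is called a biological replicate, and nothing in the labels speaks of separate mothers or collections, so a p-value here takes its error from the spread among the arrays alone, which may be technical. The number of arrays limits the precision.

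Cells reduce superoxide to hydrogen peroxide with superoxide dismutases, and remove the peroxide with catalase, glutathione peroxidases and peroxiredoxins. Glutathione and thioredoxin carry the electrons, and both are recharged with NADPH. The transcription factor NRF2, held in check by KEAP1, drives many of these genes through a short DNA sequence known as the antioxidant response element. Oocytes store glutathione during maturation, and the early embryo relies on that store and on maternal transcripts until its own genome is active.

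The 4 mutant samples were not alike, and results are given for all 4 and for samples 1 and 2 and samples 3 and 4 apart. Across tested probe sets, mutant samples 3 and 4 correlated with each other at r = 0.969 and with no other array above 0.774, and probe sets are not independent replicates. Of 20 measured markers of granulosa and cumulus cells, the somatic cells that surround the oocyte, 18 lay above a background bound, the 95th percentile of bacterial control probe sets on the same array, in mutant samples 3 and 4, against 11 to 14 in wild type and 9 to 15 in mutant samples 1 and 2. The bound itself was 14.74 and 16.15 in mutant samples 3 and 4 and 16.35 to 31.01 in wild type. In mutant samples 1 and 2 it was 27.24 and 37.71, so these counts rest on unequal bounds. Has2 was counted above it in mutant samples 3 and 4, at 17 and 26.9. Cyp11a1, Amh, Amhr2, Nr5a2 and Ptgs2 lay within the wild type range there, and Ptx3 lay below it. The summed signal of the 20 markers was 24440 to 29641 in mutant samples 3 and 4. It was 2996 to 3950.4 in wild type and 2164 to 3463 in mutant samples 1 and 2. The steroidogenic enzyme gene Hsd3b1 read at least 6889 in mutant samples 3 and 4 and at most 50.5 elsewhere. None of the 20 markers was at 0 in any sample. Star, Foxl2, Amhr2, Inha, Nr5a1, Nr5a2 and Gja1 lay above the bound on all 8 arrays, wild type included. The cumulus matrix genes Ptx3 and Has2 read at most 19.6 and 26.9 in any sample. The oocyte and early embryo markers were above the bound on all arrays for all 9 genes measured, with a summed signal of 17247 to 22953 in wild type, 45863 to 48514 in mutant samples 1 and 2 and 20149 to 22912 in mutant samples 3 and 4. Labelling controls stood at 4.81 and 3.37 times the wild type mean in mutant samples 1 and 2. The ratio of 3 prime to 5 prime actin signal was 16.3 to 21.1 in wild type, 12.9 and 15.05 in mutant samples 1 and 2, and 7.04 and 4.88 in mutant samples 3 and 4. The same ratio for Gapdh was 8.58 to 10.1 in wild type, 6.63 and 6.76 in mutant samples 1 and 2, and 6.94 and 7.33 in samples 3 and 4, and did not set the last pair apart. The part of these differences in the results below was not tested. In pooled embryos, fewer cells of a type and less RNA per cell cannot be told apart. The brighter Smarca4 probe set was lower in all 4 mutant samples, reading 387.5, 200.9, 273 and 291.3 against 796, 632.1, 612.1 and 660.6 in wild type (log2 change -1.26, SE 0.249, limma adjusted p = 0.0211). The dimmer one overlapped (log2 change 0.04, limma adjusted p = 0.963).

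Over all 8 arrays 1 of the 35 tested members rose in the mutants and 0 fell; 34 did not pass (limma, Benjamini-Hochberg adjusted p over all 22518 tested probe sets under 0.05). At an unadjusted limma p under 0.05, 7 members were higher, Gsto1 among them, and 4 lower. The share of all tested probe sets at that cut-off was not counted, so no excess can be read from these counts. Gstm2, also among the 7, passed the signal filter only through mutant samples 3 and 4. Without mutant sample 2, 5 members rose and 2 fell, where 13% of all tested probe sets were called. Without mutant sample 1, 2 rose, where 12% were called. Without any other single sample 0 members passed, where 0.324% to 1.96% were called. Of all tested probe sets, 2.98% were called higher and 3.58% lower, 6.56% in all, so 1 of 35 members, or 2.86%, is near the background. The median log2 change was 0.42 over the 35 members and -0.05 over all tested probe sets, with 24 members above 0 and 11 below, where 46.8% of all tested probe sets lay above 0. Without mutant samples 3 and 4 the members' median turned to -0.11, with 16 above 0 and 19 below, and that of all tested probe sets was 0.05. Every mutant sample lay above every wild type sample for Gsto1, Gstm1 and Txnrd1, 3 of 35 against 7.83% of all tested probe sets. Every mutant sample lay below every wild type sample for Prdx4 and Mgst3, 2 of 35 against 9.67%.

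The 2 pairs of mutant samples gave different counts. In mutant samples 1 and 2 against wild type, Gpx3 and Gsto1 rose and Prdx4, Txn1, Mgst3 and Hmox2 fell, where 3.6% of all tested probe sets were higher and 3.11% lower, 6.71% in all. In mutant samples 3 and 4 against wild type, 16 members rose and 5 fell, where 18.3% of all tested probe sets were higher and 23.2% lower, 41.6% in all. Of the members, 45.7% were thus higher and 14.3% lower in that comparison. Of the 16, Cat, Prdx3 and Gstm2 passed the signal filter only through samples 3 and 4, where they are high, so they had to differ and their p-values are not given. Among the 32 other tested members 13 rose and 5 fell. Besides Cat, described by a lower bound, its largest log2 changes were those of Mgst1, Idh1 and Gsto1, in the same samples whose summed granulosa and cumulus marker signal was 24440 to 29641. The comparisons share the wild type samples and are given side by side. Directly between the mutant pairs, without a test since the labels do not give this split, samples 3 and 4 both lay above samples 1 and 2 for 24 of 35 members, where 26.5% of all tested probe sets did, and both below for 8, where 42.6% did. A mean more than 2 log2 units above was found for 9 of 35 members and for 6.02% of all tested probe sets. A mean more than 2 log2 units below was found for 0 members and 1.12%. Both the 24 and the 9 include Cat, Prdx3 and Gstm2, which passed the filter only through samples 3 and 4.

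**Figure D1:**
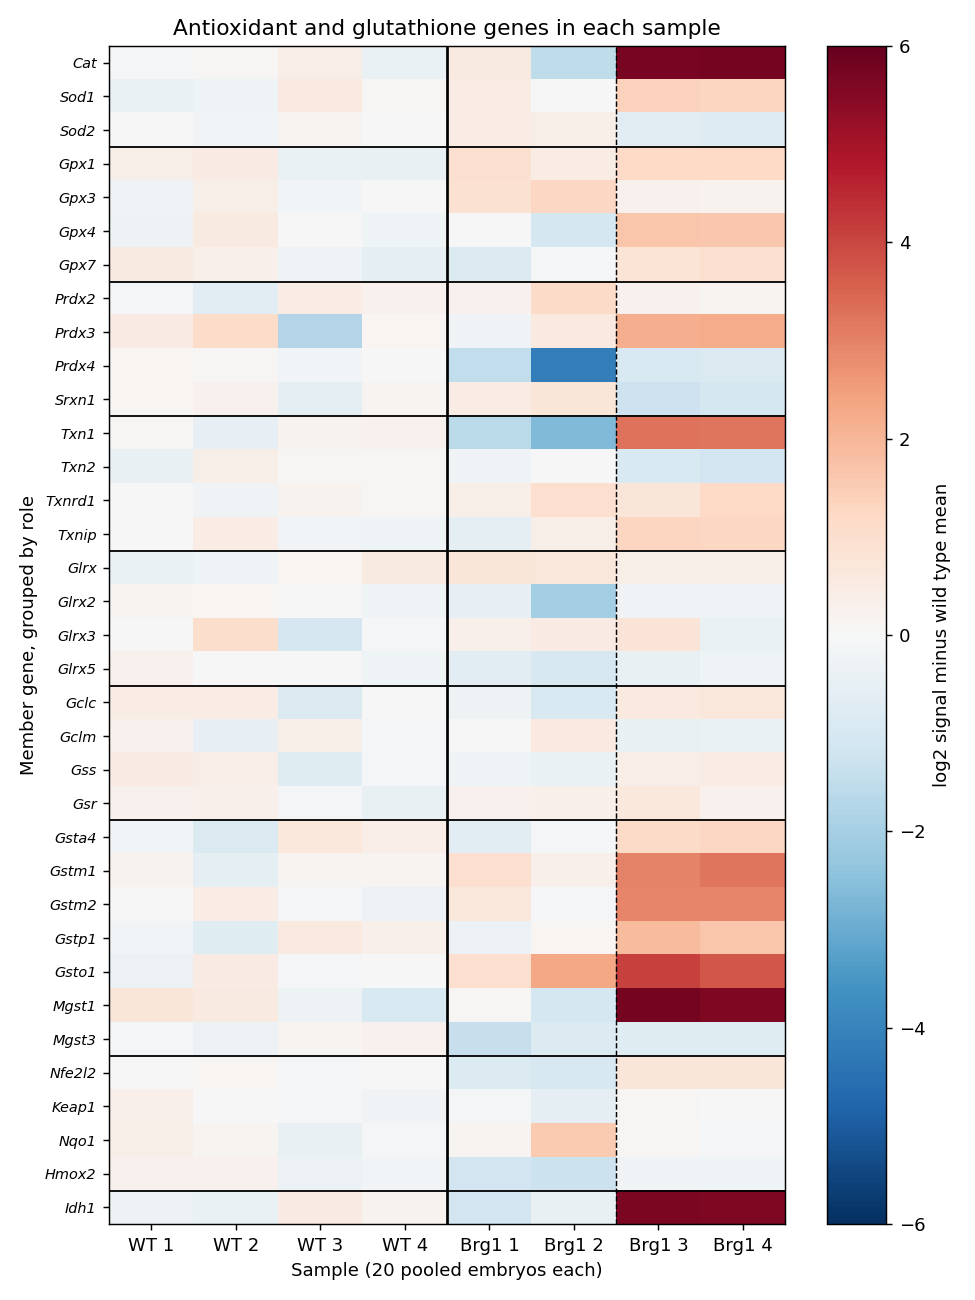
Log2 signal of the 35 tested members in each of the 8 samples, as the difference from the wild type mean of that gene; rows are grouped by role and separated by lines, and the dashed line parts mutant samples 1 and 2 from 3 and 4. Cat, Mgst1 and Idh1 are dark red in mutant samples 3 and 4 only, where the log2 changes of Mgst1 and Idh1 from wild type were 5.67 and 5.63 and Cat, under the background bound in wild type, was at least 37.7-fold higher, and Prdx4 is darkest blue in mutant sample 2.

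The core of the antioxidant response element, TGACNNNGC on either strand, was searched in the 250 bases before each RefSeq start of the GRCm38.p6 build. Among 37 members with a listed start, 7 genes held a match, and of all 27025 genes with a listed start 11.5% did. The 7 were G6pdx, Gclm, Mgst1, Nfe2l2, Prdx1, Sod1 and Txnrd1. The windows shown are those of the 4 matching genes that rose in mutant samples 3 and 4 against wild type, Mgst1, Sod1, Txnrd1 and Nfe2l2, and that of Gsto1, which passed over all samples and whose window held no match. Capitals mark the match, read in reverse complement where it lies on the opposite strand.
Gsto1, chr19:47854723-47854972, plus strand: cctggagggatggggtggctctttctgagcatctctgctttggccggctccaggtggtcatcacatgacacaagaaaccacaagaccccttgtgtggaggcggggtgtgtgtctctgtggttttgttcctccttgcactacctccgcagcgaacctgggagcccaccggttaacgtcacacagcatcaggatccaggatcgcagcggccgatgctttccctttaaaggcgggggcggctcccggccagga
Mgst1, chr6:138140277-138140526, plus strand: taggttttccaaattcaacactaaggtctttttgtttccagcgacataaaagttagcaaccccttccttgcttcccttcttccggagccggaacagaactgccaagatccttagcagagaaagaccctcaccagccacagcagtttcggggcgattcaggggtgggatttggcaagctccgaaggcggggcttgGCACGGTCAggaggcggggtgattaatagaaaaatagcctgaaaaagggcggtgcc
Sod1, chr16:90220512-90220761, plus strand: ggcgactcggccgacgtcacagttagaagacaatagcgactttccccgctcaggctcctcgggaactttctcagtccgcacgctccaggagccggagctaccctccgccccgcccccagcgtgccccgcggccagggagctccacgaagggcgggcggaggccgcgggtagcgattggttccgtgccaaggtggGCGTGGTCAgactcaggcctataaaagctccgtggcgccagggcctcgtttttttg
Txnrd1, chr10:82858956-82859205, plus strand: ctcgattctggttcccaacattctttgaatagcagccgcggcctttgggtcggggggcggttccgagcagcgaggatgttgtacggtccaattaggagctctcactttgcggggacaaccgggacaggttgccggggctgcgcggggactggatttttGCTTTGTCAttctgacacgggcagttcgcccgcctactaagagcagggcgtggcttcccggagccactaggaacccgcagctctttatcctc
Nfe2l2, chr2:75704664-75704913, minus strand: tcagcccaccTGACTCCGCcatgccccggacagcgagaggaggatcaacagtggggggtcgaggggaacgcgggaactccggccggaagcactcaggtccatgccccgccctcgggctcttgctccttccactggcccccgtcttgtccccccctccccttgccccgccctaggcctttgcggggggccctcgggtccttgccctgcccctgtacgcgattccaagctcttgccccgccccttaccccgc
The match began 56 bases before the start in Mgst1 and in Sod1, and 92 bases before it in Txnrd1, each on the opposite strand, and 240 bases before it on the gene's own strand in Nfe2l2. Mgst1 held it at 1 of 2 listed starts and Txnrd1 at 1 of 3. Cat, Gpx1, Gpx4, Prdx3, Txn1, Txnip, Gstm1, Gstm2, Gstp1, Gsto1 and Idh1 also rose in mutant samples 3 and 4 and held no match. No start was listed for Gsta4, which rose there too, or for Sod3, Prdx6, Gclc, Gsr and Hmox1. A match is a run of letters and says nothing about binding in these embryos.

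Glutathione transferases join glutathione to reactive compounds. Of 7 tested members, 1 rose over all samples. In mutant samples 3 and 4 against wild type 6 rose and 1 fell, with Gstm2 tested only because of those samples. Of all tested probe sets, 18.3% were higher and 23.2% lower there. In samples 1 and 2, 1 rose and 1 fell, where 6.71% of all tested probe sets were called. Gsto1 encodes the omega class enzyme, which also reduces dehydroascorbate. It read 127.6, 228.3, 152 and 161.8 in wild type and 332.1, 822.1, 2793.6 and 2149.3 in mutant samples 1 to 4. The groups did not overlap, and samples 3 and 4 stood above 1 and 2. Its mean signal was 167 ± 43.1 in wild type and 1524 ± 1143 in the mutants (SD, n = 4 each), 6.92-fold higher (log2 change 2.79, SE 0.577, limma adjusted p = 0.0237). A second Gsto1 probe set read 60.8, 53.8, 80 and 52.2 against 233.4, 191.8, 634.8 and 762.3, also without overlap (log2 change 2.66, limma adjusted p = 0.0141). In samples 1 and 2 alone Gsto1 was 3.19-fold higher (limma adjusted p = 0.0335), and in samples 3 and 4 alone 15-fold (limma adjusted p = 1.42e-05). The call over all samples was lost without wild type sample 1, 2, 3 or 4 (limma adjusted p = 0.0843, 0.0550, 0.0721 and 0.0726) and without mutant sample 3 or 4 (0.0540 and 0.0613).

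Mgst1, a membrane-bound transferase of the endoplasmic reticulum and mitochondria, read 88.4, 79, 43.4 and 28.5 in wild type, 56.9 and 26.2 in mutant samples 1 and 2, and 2923.8 and 2593.8 in samples 3 and 4. Only the last pair, the samples with the high granulosa marker signal, stood out, 50.8-fold above wild type (log2 change 5.67, SE 0.425, limma adjusted p = 2.52e-05). A second Mgst1 probe set, left out by the filter, read at most 41 in any sample and 23 and 11 in mutant samples 3 and 4. Gstm1, of the mu class, read 54.8, 32.5, 53.3 and 52.7 in wild type and 95.5, 58.3, 377.1 and 431.3 in the mutants. All mutant samples were higher, by 8.53-fold in samples 3 and 4 (limma adjusted p = 6.98e-05) and by a log2 change of 0.66 in samples 1 and 2, which did not pass (limma adjusted p = 0.310). A second Gstm1 probe set read 66.7, 27.6, 56.9 and 23.2 in wild type and 71.8, 27.4, 315.2 and 289 in the mutants, so that samples 1 and 2 overlapped wild type there (log2 change 0.17, limma adjusted p = 0.885). Gstm2, a close relative whose probes may share targets with Gstm1, read 27.4, 38.3, 26.6 and 21.8 in wild type, 44.7 and 26.3 in mutant samples 1 and 2, and 213.1 and 211.1 in samples 3 and 4. Gstp1, the pi class enzyme, read 495.2, 337.7, 826.8 and 693.7 in wild type, 437.1 and 611.8 in mutant samples 1 and 2, and 2069.1 and 1752.6 in samples 3 and 4. In samples 3 and 4 Gstp1 was 3.42-fold above wild type (limma adjusted p = 0.00240) and Gstm2, tested only because of these samples, 7.59-fold. Gsta4, which clears lipid peroxidation products, read 123.4, 76.9, 218.7 and 183.4 in wild type, 87.7 and 132.1 in mutant samples 1 and 2, and 313 and 335.7 in samples 3 and 4 (limma adjusted p = 0.0306).

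Mgst3 went the other way. This membrane-bound transferase read 952.4, 778.4, 1146.4 and 1214.4 in wild type and 391.9, 575.5, 609.1 and 604.4 in the mutants. Every mutant sample was lower, with sample 1 lowest and the others close together. The mean was 1023 ± 197 in wild type and 545 ± 103 in the mutants (SD, n = 4 each), a log2 change of -0.91 (SE 0.246) that did not pass over all samples (limma adjusted p = 0.0531). It passed as lower in samples 1 and 2 (log2 change -1.09, limma adjusted p = 0.0440) and in samples 3 and 4 (log2 change -0.73, limma adjusted p = 0.0216). Over all samples it also passed when arrays were centred on their median or 75th percentile (limma adjusted p = 0.0468 and 0.0421).

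**Figure D2:**
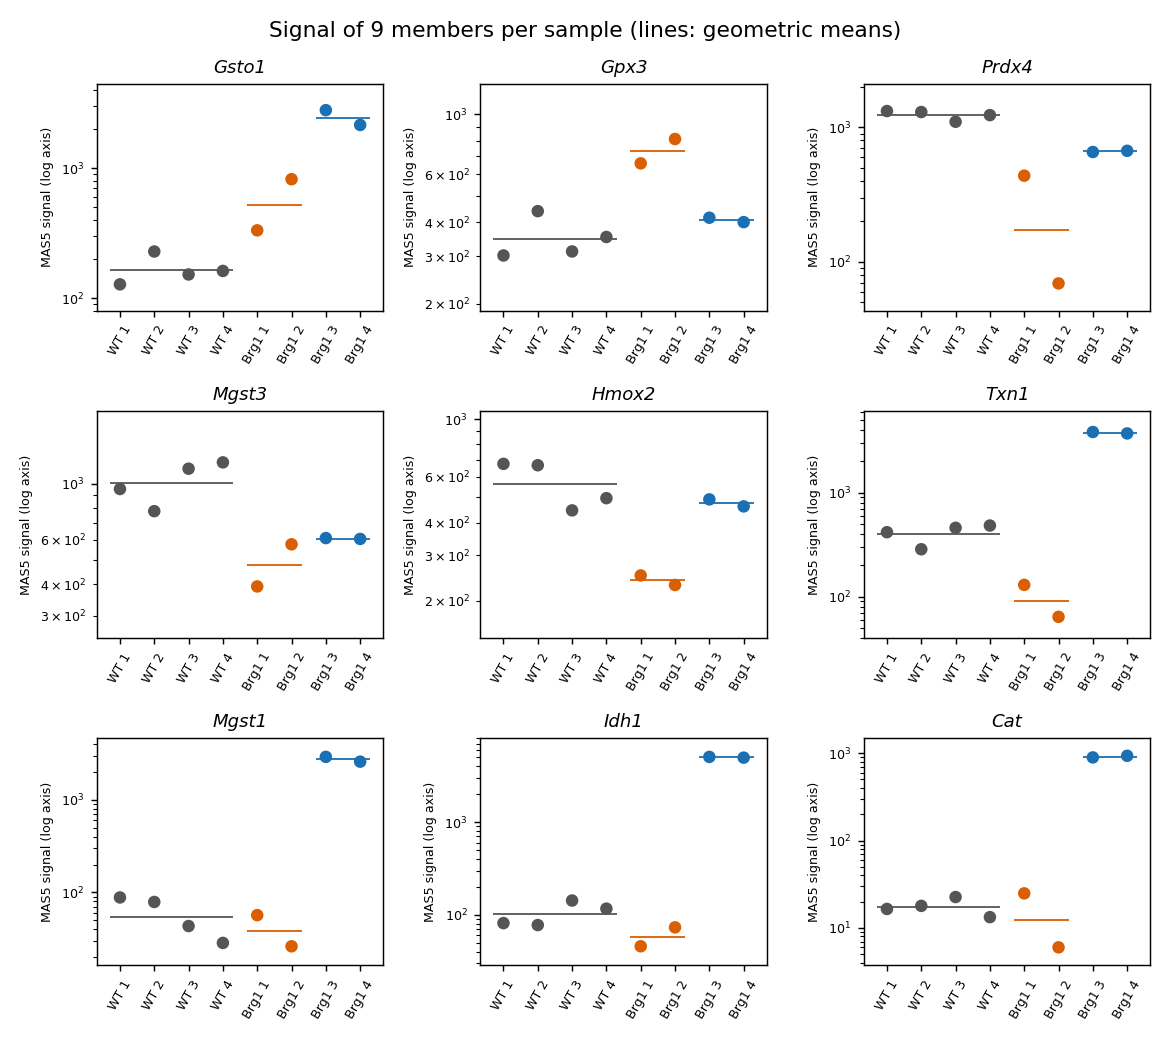
MAS5 signal (log axis) of 9 members in each of the 4 wild type samples (grey), mutant samples 1 and 2 (orange) and mutant samples 3 and 4 (blue); points are samples and lines are geometric means of each set. Gsto1 lies above and Mgst3 and Prdx4 lie below wild type in all 4 mutant samples, whereas Mgst1, Idh1 and Cat are high in mutant samples 3 and 4 only, and Txn1 lies on opposite sides of wild type in the 2 pairs.

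Among the enzymes that handle superoxide and hydrogen peroxide, 0 of 3 tested members passed over all samples, where 6.56% of all tested probe sets did. Cat encodes catalase, which splits hydrogen peroxide in peroxisomes. It read 16.5, 17.9, 22.6 and 13.3 in wild type, 24.9 and 6 in mutant samples 1 and 2, and 894.7 and 933.3 in samples 3 and 4. All wild type arrays and both of the first mutant pair were under the background bound. Mutant samples 3 and 4 were at least 37.7-fold higher than wild type, counted from that bound, and Cat was tested only because of these samples. A dimmer Cat probe set showed the same order, at most 15.5 in the first 6 samples and 199.8 and 240.2 in mutant samples 3 and 4.

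Sod1, the cytosolic copper-zinc dismutase, read 883.1, 958.6, 1715.6 and 1213.3 in wild type and 1592.6, 1182.8, 2976.9 and 2841 in mutant samples 1 to 4. Samples 3 and 4 were 2.52-fold above wild type (limma adjusted p = 0.00308), and samples 1 and 2 lay within the wild type range. The mitochondrial manganese enzyme Sod2 read 3703.5, 3436.5, 4247.3 and 3913.8 in wild type, 5196.7 and 4804.7 in mutant samples 1 and 2, and 2476 and 2242.1 in samples 3 and 4. The second pair fell below wild type (log2 change -0.69, limma adjusted p = 0.00546). The first pair read above every wild type sample but did not pass (log2 change 0.39, limma adjusted p = 0.201). Sod3, the secreted dismutase, was under the bound on all 8 arrays, at 5.4 to 12.2.

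The other tested probe sets of Sod1 and Sod2 gave mixed answers. A dimmer Sod2 probe set read 52.3, 59.5, 49.1 and 53.9 in wild type and 148.8, 185.5, 143.9 and 152.9 in the mutants, where both pairs lay together and above every wild type sample (log2 change 1.55, SE 0.239, limma adjusted p = 0.0119). The 2 other tested Sod2 probe sets did not pass over all samples (log2 changes -0.23 and -0.53, limma adjusted p = 0.655 and 0.292). In samples 3 and 4 both lay lower, like the representative, and the brighter one passed (log2 changes -0.63 and -0.64, limma adjusted p = 0.0233 and 0.130). A dimmer Sod1 probe set read 45.5, 81.6, 60.4 and 53.9 against 145, 187.3, 167.6 and 114.2, again without overlap (log2 change 1.36, SE 0.286, limma adjusted p = 0.0253). The 2 other tested Sod1 probe sets did not pass over all samples (log2 changes 0.57 and 0.04, limma adjusted p = 0.280 and 0.958). In samples 3 and 4 the brighter of them rose, like the representative, and the other did not pass (log2 changes 0.93 and 0.14, limma adjusted p = 0.0277 and 0.800). Of 26 further tested probe sets of 18 members, 3 rose, those of Sod1, Sod2 and Gsto1, and 0 fell. Of all tested probe sets, 2.98% were higher and 3.58% lower over all samples. Among the 26, 5 had the sign opposite to the representative probe set. Where on its transcript each probe set lies was not analysed here.

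**Figure D3:**
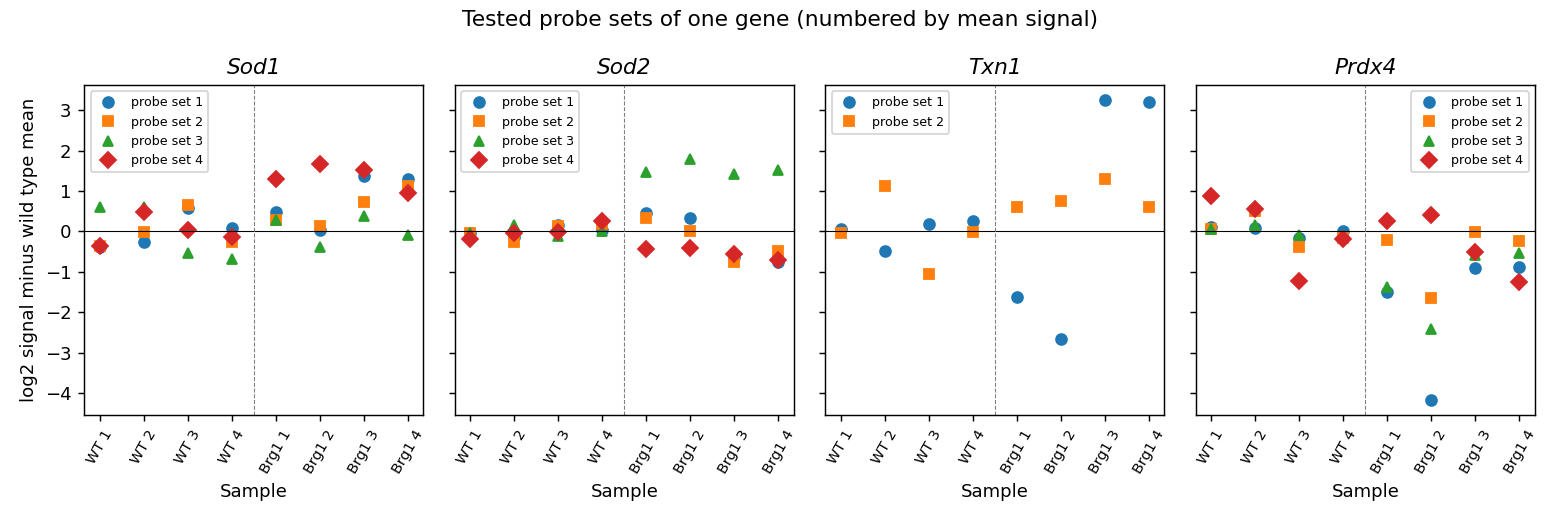
Log2 signal as the difference from the wild type mean for every tested probe set of Sod1, Sod2, Txn1 and Prdx4, by sample; symbols mark probe sets, numbered by mean signal, and the dashed line parts wild type from mutant samples. The third Sod2 probe set and the fourth Sod1 probe set lie above 0 in all 4 mutant samples, and the 2 Txn1 probe sets differ in mutant samples 1 and 2, where the first fell and the second had a log2 change of 0.68.

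Glutathione peroxidases reduce peroxides at the expense of glutathione. None of 4 tested members passed over all samples. In mutant samples 3 and 4, 2 rose, where 41.6% of all tested probe sets were called. In samples 1 and 2, 1 rose, where 6.71% were called. Gpx1, the cytosolic selenoenzyme, read 606.4, 666.4, 353.8 and 349.7 in wild type and 918.2, 633.9, 1091 and 1082.3 in the mutants. Mutant sample 2 alone overlapped wild type, and the change over all samples did not pass (log2 change 0.95, limma adjusted p = 0.0832). In samples 3 and 4 it was 2.30-fold higher (limma adjusted p = 0.0102). Gpx4, which protects membrane lipids, read 279.6, 494.6, 347.3 and 282 in wild type, 347.9 and 164 in mutant samples 1 and 2, and 1088.7 and 1033 in samples 3 and 4. The last pair was 3.11-fold above wild type (limma adjusted p = 0.00101), and a second probe set 4.45-fold (limma adjusted p = 0.000592).

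Gpx3, the secreted form, showed the reverse arrangement. It read 301.6, 439.3, 312.1 and 352.8 in wild type, 659 and 810.2 in mutant samples 1 and 2, and 415.5 and 400.3 in samples 3 and 4. The first pair was 2.10-fold above wild type (log2 change 1.07, SE 0.255, limma adjusted p = 0.0380), and the second pair lay within the wild type range. Gpx7, an endoplasmic reticulum member, read 56.5 to 124.9 in wild type and 47.2, 82, 151 and 166.7 in the mutants, and passed in neither pair. Its relative Gpx8 was left out by the filter: it read at most 14.8 in the first 6 samples, under the bound, and 323.1 and 265.1 in mutant samples 3 and 4, at least 12.1-fold above wild type. Fitted with no filter over all samples, Gpx8 did not pass (limma adjusted p = 0.391).

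Peroxiredoxins reduce peroxides through a cysteine that thioredoxin recharges. None of 4 tested members of this group, sulfiredoxin included, passed over all samples, where 6.56% of all tested probe sets did. Prdx4, the endoplasmic reticulum peroxiredoxin, read 1323, 1300.7, 1101.5 and 1234 in wild type and 437.3, 69, 656.1 and 669.7 in mutant samples 1 to 4. Every mutant sample was lower, and sample 2 was lowest by far. The mean was 1240 ± 99.7 against 458 ± 280 (SD, n = 4 each), a log2 change of -1.87 (SE 0.618, limma adjusted p = 0.0944). It fell in samples 1 and 2 (log2 change -2.83, limma adjusted p = 0.0223) and in samples 3 and 4 (log2 change -0.90, limma adjusted p = 0.00235). A second probe set without overlap read 530.1 to 644.9 in wild type and 221.3, 107.5, 386.9 and 400.9 in the mutants (log2 change -1.23, limma adjusted p = 0.0838). The 2 others overlapped and did not pass (log2 changes -0.53 and -0.27, limma adjusted p = 0.410 and 0.790).

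Prdx2, a cytosolic peroxiredoxin, read 2844.9, 2002.7, 4248.7 and 3699.6 in wild type and 3717.4, 6785.3, 3675.4 and 3451.3 in the mutants, with overlap (log2 change 0.46, limma adjusted p = 0.401). Its second probe set parted the mutant pairs: 266.8 to 594.6 in wild type, 1205.3 and 2730.2 in samples 1 and 2 (log2 change 2.01, limma adjusted p = 0.0221), and 200.4 and 290.7 in samples 3 and 4 (log2 change -0.90, limma adjusted p = 0.0535). Mitochondrial Prdx3 read 40.7, 62.8, 8.6 and 31.3 in wild type, 24.8 and 43 in samples 1 and 2 and 129.7 and 133.6 in samples 3 and 4, which were 4.57-fold above wild type and alone brought it through the filter. Srxn1, which repairs over-oxidised peroxiredoxins, read 105.2, 116.3, 66.8 and 110 in wild type, 134 and 159.9 in samples 1 and 2, and 41.3 and 46.9 in samples 3 and 4. It fell in samples 3 and 4 (log2 change -1.15, limma adjusted p = 0.0135). A second, dimmer Srxn1 probe set read 20.3 to 38.7 in wild type and 51.5 to 69.2 in the mutants (log2 change 0.99). It passed the signal filter only through the mutant samples, where it is high, so its p-value is not given.

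In the thioredoxin system, 0 of 4 tested members passed over all samples. In mutant samples 3 and 4, 3 rose and 1 fell, where 41.6% of all tested probe sets were called. In samples 1 and 2, 1 fell, where 6.71% were called. Txn1, the cytosolic thioredoxin, read 416.4, 285.4, 459.2 and 482.9 in wild type, 129.6 and 63.8 in mutant samples 1 and 2, and 3841.3 and 3721.9 in samples 3 and 4. The pairs lay on opposite sides of wild type. Samples 1 and 2 were 4.43-fold below wild type (limma adjusted p = 0.0123, log2 change -2.15, SE 0.345) and samples 3 and 4 were 9.38-fold higher (log2 change 3.23, SE 0.231, limma adjusted p = 2.06e-05). Over all samples the values did not pass (log2 change 0.54, limma adjusted p = 0.823). A second Txn1 probe set overlapped between the groups, at 124.9 to 564.9 in wild type and 397.8, 441.6, 636.5 and 395.6 in the mutants.

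Mitochondrial Txn2 read 495.7, 861.3, 723.2 and 716.4 in wild type, 595.9 and 668.7 in samples 1 and 2, and 358.6 and 310.7 in samples 3 and 4, where it fell (log2 change -1.04, limma adjusted p = 0.00747). Its 2 other tested probe sets had log2 changes of -0.79 and -1.20 in samples 3 and 4 (limma adjusted p = 0.0236 and 0.131). Txnip, which binds thioredoxin and curbs glucose uptake, read 232.5, 328.4, 213.4 and 200 in wild type, 162.5 and 300 in samples 1 and 2, and 582 and 568.5 in samples 3 and 4 (2.41-fold, limma adjusted p = 0.00270). A dimmer Txnip probe set read 13.9 to 41.1 in wild type and 77.8 and 24.2 in samples 1 and 2. In samples 3 and 4 it read 99.6 and 139.1, and it passed the filter only through them, so its p-value is not given. Txnrd1, the reductase that recharges cytosolic thioredoxin, read 63.2, 55.9, 74.2 and 67.8 in wild type and 81.6, 128.5, 106.6 and 146.3 in the mutants. Every mutant sample was higher, and both pairs overlapped each other, but the change over all samples did not pass (log2 change 0.80, SE 0.276, limma adjusted p = 0.104). It passed in samples 3 and 4 (1.92-fold, limma adjusted p = 0.0176). Another Txnrd1 probe set overlapped (log2 change 0.27, limma adjusted p = 0.716). Txnrd2, the mitochondrial reductase, read 10.4 to 28.1 over all 8 arrays on its brightest probe set and was not tested.

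Glutaredoxins reduce protein disulphides with glutathione, and Glrx5 also serves iron-sulphur cluster assembly in mitochondria. None of the 4 passed in any of the 3 comparisons. Of all tested probe sets, 6.56% were called over all samples, 6.71% in mutant samples 1 and 2 and 41.6% in samples 3 and 4. Glrx5 read 2386.4, 2028.8, 2022 and 1693.3 in wild type and 1276.2, 1035.6, 1503 and 1694.3 in the mutants, overlapping in mutant sample 4 only (log2 change -0.58, limma adjusted p = 0.159). Glrx2 read 630.1 to 861.8 in wild type and 535, 183.7, 646.8 and 654.2 in the mutants, with sample 2 far below the rest. Its 2 other probe sets had log2 changes of -0.69 and -0.83, and none of the 3 passed (limma adjusted p between 0.257 and 0.317). Glrx and Glrx3 had log2 changes of 0.52 and 0.29 (limma adjusted p = 0.261 and 0.739). A second Glrx probe set had the opposite sign (log2 change -0.78, limma adjusted p = 0.225).

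The enzymes that make and recycle glutathione had small changes over all samples. Gclc and Gclm encode the catalytic and modifier subunits of the rate-limiting ligase, Gss the second enzyme of synthesis, and Gsr the reductase that restores oxidised glutathione. None of the 4 passed in any of the 3 comparisons. The share of all tested probe sets called was 6.56% over all samples, 6.71% in mutant samples 1 and 2 and 41.6% in samples 3 and 4. The log2 changes of the 4 genes over all samples were 0.01, -0.07, 0.05 and 0.36 (limma adjusted p between 0.449 and 0.990). Gclc read 91 to 227 in wild type, 133.7 and 89.2 in mutant samples 1 and 2, and 247.5 and 271.4 in samples 3 and 4. Gclm read 224.4 to 401.1 in wild type and 225.1 to 472.7 in the mutants. The ranges of Gss were 148.8 to 343.8 and 187.8 to 339.5, and its second probe set had a log2 change of -0.06 (limma adjusted p = 0.941). Gsr read 93.2, 95.7, 71.8 and 55.9 in wild type and 93.6, 95.7, 119.4 and 91.5 in the mutants, and the groups overlapped. A second Gsr probe set had the opposite sign (log2 change -0.78, limma adjusted p = 0.264). A second Gclc probe set rose in samples 3 and 4 (log2 change 0.88, limma adjusted p = 0.0450), and no p here shows that levels were equal.

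NRF2, encoded by Nfe2l2, read 244.2, 271.5, 233.6 and 252.9 in wild type, 143.1 and 128 in mutant samples 1 and 2, and 417.8 and 409.6 in samples 3 and 4. Wild type lay in a narrow band with the pairs on either side. In samples 3 and 4 Nfe2l2 was 1.65-fold higher (log2 change 0.73, limma adjusted p = 0.0126). In samples 1 and 2 its log2 change was -0.89 and did not pass (limma adjusted p = 0.0542). Keap1, the adaptor that marks NRF2 for degradation, read 229.7 to 334.5 in wild type and 186.1 to 282.7 in the mutants (log2 change -0.12, limma adjusted p = 0.795). The quinone reductase gene Nqo1, a standard NRF2 target, read 28.6 to 49.5 in wild type and 44.4, 114.6, 41.2 and 35.5 in the mutants, with sample 2 highest (log2 change 0.42, limma adjusted p = 0.574). The inducible haem oxygenase Hmox1 was left out by the filter and read 11.8 to 32.1 in wild type and 24.1 to 59.8 in the mutants. The constitutive haem oxygenase Hmox2 read 673.6, 665.4, 446 and 497 in wild type, 250.6 and 230.3 in samples 1 and 2, and 491.6 and 462.1 in samples 3 and 4. It fell in samples 1 and 2 (log2 change -1.22, SE 0.264, limma adjusted p = 0.0277), and samples 3 and 4 lay within the wild type range.

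Idh1, the cytosolic isocitrate dehydrogenase that supplies NADPH, had the widest gap between mutant pairs of any tested member, 6.43 log2 units. It read 81.4, 77.6, 142.7 and 116.6 in wild type, 45.8 and 73.3 in mutant samples 1 and 2, and 5055.5 and 4962.3 in samples 3 and 4. Samples 3 and 4 were 49.5-fold above wild type (log2 change 5.63, SE 0.272, limma adjusted p = 5.05e-06), and both samples of the first pair read below all 4 wild type samples without passing (log2 change -0.81, limma adjusted p = 0.190). A second Idh1 probe set read 24.7 to 56.1 in wild type, 3.8 and 4.4 in samples 1 and 2, both under the bound, and 1739.7 and 1990.1 in samples 3 and 4. There samples 1 and 2 were lower by at least 1.15-fold counted from the bound. This probe set passed the filter only through samples 3 and 4, so its p-values are not given.

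**Figure D4:**
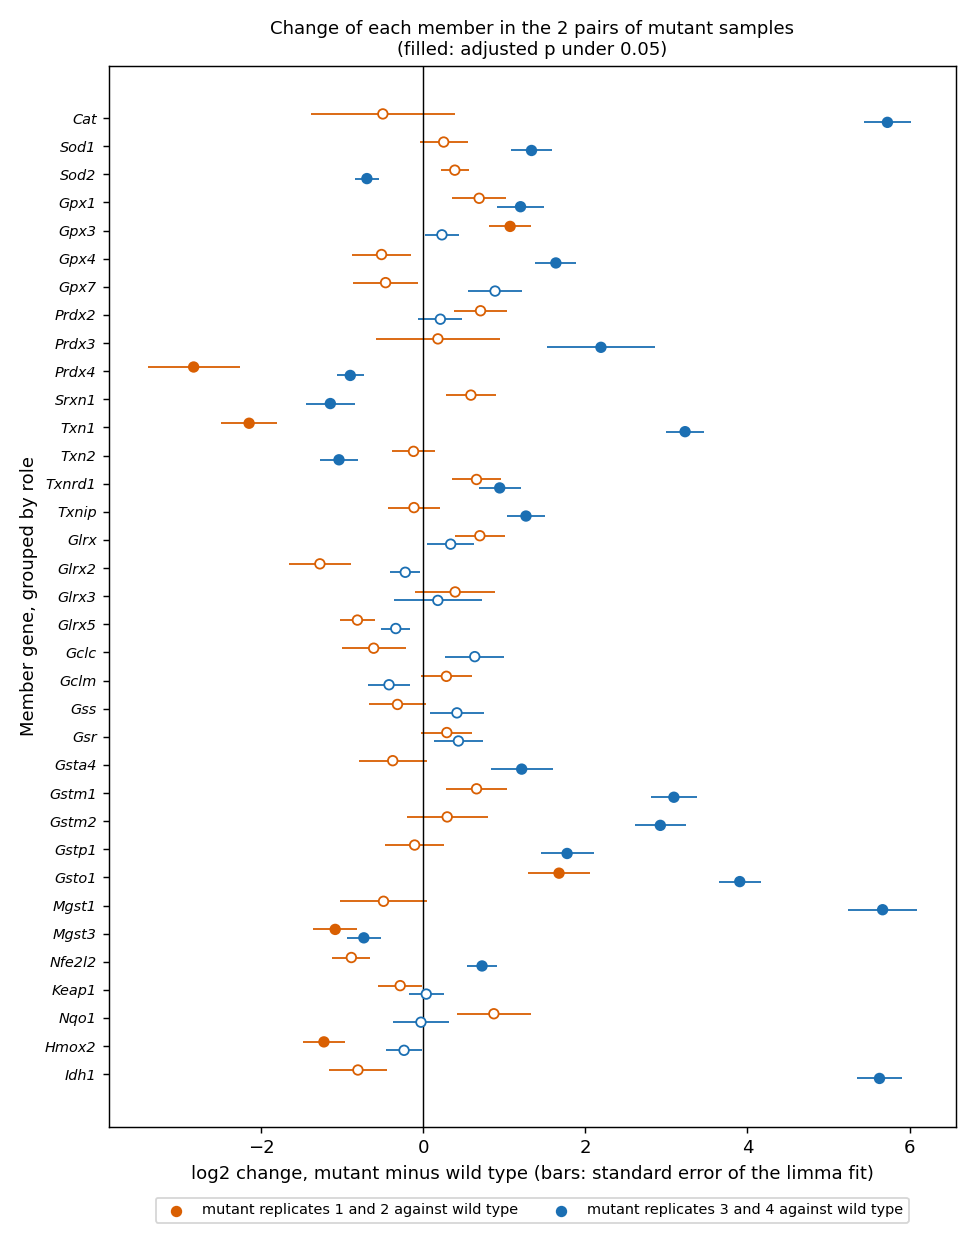
Log2 change from wild type, with the standard error of the limma fit, of the 35 tested members in mutant samples 1 and 2 (orange) and 3 and 4 (blue); filled points have an adjusted p under 0.05 over all tested probe sets. In samples 3 and 4, 21 members are filled, 16 of them to the right of 0 (Cat, whose plotted wild type values lie under the background bound, Prdx3 and Gstm2 were tested only because of these samples), and in samples 1 and 2, 6 are filled, with Txn1 at -2.15 in one set and 3.23 in the other.

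Calls within a pair rest on few arrays, and with 1 mutant sample left it was assumed to vary like wild type. In samples 1 and 2, the number higher went from 2 to 0 without mutant sample 2 or wild type sample 1, 3 or 4, and the number lower from 4 to 1 without mutant sample 2 or wild type sample 1 and to 2 without wild type sample 4, where 1.62% to 2.22% of all tested probe sets were called in these 3 fits. Gpx3 and Gsto1 lost their calls in those 4 fits (limma adjusted p up to 0.165 and 0.187), Mgst3 without any single sample but wild type 2 (up to 0.132), Hmox2 without mutant sample 2 or wild type sample 1 or 4 (up to 0.113), Txn1 without mutant sample 2 (0.0623) and Prdx4 without wild type sample 1 (0.0612). Without mutant sample 2 the Prdx4 change was -1.50 and without sample 1 -4.16 on the log2 scale; for Gsto1 they were 1.02 and 2.33. In samples 3 and 4, 12 and 11 members were higher, and 3 and 1 lower, without mutant sample 3 and without mutant sample 4, where 24.2% and 23.1% of all tested probe sets were called. Calls lost without mutant sample 4 were those of Sod2, Gpx1, Prdx3, Srxn1, Txn2, Txnrd1, Gsta4, Mgst3 and Nfe2l2 (their largest limma adjusted p was between 0.0626 and 0.182). Of these, Gpx1, Prdx3, Srxn1, Gsta4, Mgst3 and Nfe2l2 were also lost without mutant sample 3, Gsta4 without wild type sample 1 and Mgst3 without wild type sample 4. Besides Cat and Gstm2, Sod1, Gpx4, Prdx4, Txn1, Txnip, Gstm1, Gstp1, Gsto1, Mgst1 and Idh1 kept their calls in all 6 such fits. Centring each array on its median moved the median of all tested probe sets from 0.05 to -0.19 in samples 1 and 2. There 0 members were then higher and 7 lower. The share of all tested probe sets called in that fit is not given here, so these counts are not set against the background.

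The wider redox network was read from a list of 103 further genes, 83 of them tested. Over all samples 5 rose, 2 fell and 76 did not pass, where 6.56% of all tested probe sets were called, so the share is near the background. Among thioredoxin-fold and repair enzymes 3 of 19 rose and 1 fell. The disulphide isomerase gene Pdia3 read 171.8, 174.4, 213.3 and 162 in wild type and 419.2, 241.7, 466.7 and 539.8 in the mutants, 2.23-fold higher (limma adjusted p = 0.0384). Its relative Pdia6 read 56.9, 82.1, 143.3 and 83.1 against 213.2, 225.6, 638.8 and 661.9, 4.37-fold higher (limma adjusted p = 0.0251). All mutant samples were higher for both genes. The thioredoxin-like Txndc17 read 546.9 to 619.9 in wild type and 1025.6, 1675.3, 1580.3 and 1419.8 in the mutants (2.41-fold, limma adjusted p = 0.0167). The stress-induced Sesn2 fell, from 2413.6, 2160, 1342.1 and 1691.1 to 889.2, 510, 358.5 and 358.8 (log2 change -1.92, limma adjusted p = 0.0157). Of 20 genes of glutathione turnover, the transferase Gstk1 rose 2.37-fold, reading 32.8 to 58.8 in wild type and 76.9, 143.1, 107.9 and 101.6 in the mutants (limma adjusted p = 0.0440). Cth fell: this enzyme, which makes cysteine for glutathione, read 820.4, 572.7, 1081.9 and 950.5 in wild type and 423.7, 194.9, 190.2 and 261.8 in the mutants (log2 change -1.72, SE 0.315, limma adjusted p = 0.0181). Of 17 NADPH supply genes, the NAD kinase gene Nadk rose 2.16-fold, reading 523.5 to 622.6 in wild type and 1109.4, 1574.3, 1076.7 and 1196.7 in the mutants (limma adjusted p = 0.0205). None of 14 NRF2 partners and 13 selenoprotein genes passed.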

How the data were processed

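RNA of pooled 2-cell embryos was hybridised to 8 single-colour Affymetrix arrays. Per the submitters' processing notes, which give no version, the deposited values are intensities made with MAS5. The values are linear, and the mean after trimming 2% at each end was 150.001 on every array, so the arrays share a common scale. Each deposited intensity was raised to at least 1 and taken to log2; no further normalisation was applied. Of 45101 probe sets, 64 controls were left out, and the 50% with the highest mean log2 signal over all 8 arrays were tested. Tests used limma 3.58.1 in R 4.3.3 (lmFit, eBayes with an intensity trend), with Benjamini-Hochberg adjustment over all 22518 tested probe sets and a threshold of 0.05. The tests were checked on simulated data. Fold changes are differences of mean log2 signal. Fits of mutant samples 1 and 2, or 3 and 4, against wild type used the same probe sets.

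The background bound of an array is the 95th percentile of its 27 Bacillus control probe sets. Where a group lay under it on every array, the fold was counted from the bound and is written as at least that value. All 81 member probe sets carried the same symbol in RefSeq. The members, gene lists and comparisons were chosen with earlier results of these data known. Genes described with test values are members that passed in any of the 3 comparisons, the next best member of each role, and genes of the wider list that passed; other members are given by range or change. Alternatives covered the scaling, the filter, the offset before log2, the variance model, array weights, probe set choice, a replicate block and each sample left out. Replicate numbers were not used to pair the samples in the main fits. Deviations of same-numbered samples from their group means correlated between -0.18 and 0.02. The split between the mutant pairs enters these deviations, so the values cannot exclude a pairing.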

Additional observations from a re-analysis of the deposited data

Results flagged for a closer look

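Of 78 groups of 4 samples, 2 for each member with a probe set, 6 held a sample whose gap to the nearest other sample took a larger part of the group's log2 range than Dixon's 95% critical value for 4 samples. Chance flags about 1 in 20 groups. Among wild type samples, Gstm1 was lowest in sample 2, at 32.5 against 52.7 to 54.8 in the others. Mutant sample 2 held the highest Prdx2 signal, 6785.3 against 3451.3 to 3717.4, and the lowest Glrx2 signal, 183.7 against 535 to 654.2. Mgst3 was lowest in mutant sample 1, at 391.9 against 575.5 to 609.1. Gsr was highest in mutant sample 3, at 119.4 against 91.5 to 95.7. Sod3, under the background bound on all arrays, was lowest in mutant sample 4, at 5.4 against 9.8 to 11.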

How the results depend on the processing

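Over all 8 arrays, 1 member was higher and 0 lower, with a median log2 change of 0.42. Under array weights 18 were higher and 5 lower, where 51% of all tested probe sets were called. Without mutant replicates 3 and 4 the counts were 2 and 4, where 6.71% were called, and the median -0.11. Without mutant replicates 1 and 2 the counts were 16 and 5, where 41.6% were called. Cat, Prdx3 and Gstm2, among these 16, passed the filter only through mutant replicates 3 and 4. The count lower was 1 with arrays centred on the median or the 75th percentile, with the upper 30% by signal and when probe sets were averaged by gene; that gene was Mgst3 in each. Over all tested probe sets the median, -0.05, became -0.14 with quantile normalisation, -0.22 with median centring and -0.19 with the 75th percentile. With the replicate block 0 members were higher and 0 lower, and Gsto1 had a limma adjusted p of 0.0676; no other member call changed. Leaving out 1 sample gave 0 to 5 higher and 0 to 2 lower. In mutant samples 1 and 2 alone (2 higher, 4 lower), median centring gave 0 and 7, and no intensity trend 0 and 2. The shares of all tested probe sets called in these fits are not given here, so the counts are not set against the background. Calls lost within either mutant pair when 1 sample was left out are named in the results above. Called values of opposite sign were those of Txn1 without mutant replicates 3 and 4 (-2.15), and Nfe2l2 with array weights (0.64) and without mutant replicates 1 and 2 (0.73). The cause was not tested. Alternatives within mutant pairs were chosen after seeing the data. Of the values of single genes under an alternative, 611 kept their direction and side of the threshold or stayed within the spread, 55 newly passed, 7 no longer passed and 48 moved beyond the spread. Signals under the background bound, as for Sod3 and wild type Cat, set only limits.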
